A study of Mus musculus with 8 samples.

Results

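Total RNA of whole testes was compared between mice null for Miwi and wild-type (WT) mice. The 4 total RNA libraries of a series of 8 were used, 2 WT and 2 Miwi-null, and the ribosome footprint libraries were kept out of the fit. Both groups were C57BL/6 testes taken at postnatal day 24, with no treatment named for either, so the labelled difference is the genotype alone. The samples were chosen by their labels, WT input and Miwi-null input, and not by any measured value. Animals, litters and the construction of the null allele are not named in the labels, so p-values cover variation among these 4 libraries only, some of it possibly technical. A gene was represented by its transcript of highest mean count.

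MIWI, encoded by Piwil1, is a PIWI-clade Argonaute protein that binds piRNAs, small RNAs of the germ line, in pachytene spermatocytes and round spermatids. Spermatogenesis runs from spermatogonia through meiosis to round and then elongating spermatids, in which histones give way to transition proteins and then protamines, and in which the acrosome and the flagellum are built. In the juvenile testis the leading wave of germ cells moves through these stages in step, so that many germ cell transcripts are gained or lost within days.

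Gene counts summed to 15603012 and 13883487 in the WT libraries and to 12728378 and 11136868 in the null libraries, so that 1 count stood for 0.0641 to 0.0898 CPM (counts scaled to a common library size) before TMM scaling. The null pair differed little beyond counting noise (chi-square per gene 1.18), while the WT pair differed more (3.85). The average insert was 266 and 244.5 bases in the WT libraries and 287.6 and 284 in the null libraries, and the mean coding length behind a count was 2547 and 2526 bases in WT against 3036 and 3029 in null. Both groups carried the markers of the labelled tissue. The Sertoli marker Clu stood at 1268 and 1216 CPM in WT and 995 and 1009 CPM in null, the spermatocyte gene Sycp1 at 121 and 132 CPM in WT and 165 and 153 CPM in null and the round spermatid gene Acrv1 at 129 and 115 CPM in WT and 165 and 177 CPM in null. Tnp1 and Prm1, also taken as round spermatid markers, were present but far lower in null. Tnp1 stood at 1416 and 1568 CPM in WT and 84.2 and 85.6 CPM in null. Prm1 stood at 2365 and 2504 CPM in WT and 172 and 174 CPM in null. None of 23 epididymis genes had enough counts to be tested, and Lcn8 and Lcn9 had 0 counts in all 4 libraries.

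Piwil1 was nearly lost. It stood at 536 and 520.0 CPM in WT and 3.58 and 2.31 CPM in null, and the change was -7.46 ± 0.17 (standard error, SE, from the model) on the log2 scale, with an adjusted p of 3.42e-26 by edgeR's quasi-likelihood test with Benjamini-Hochberg adjustment. Both null libraries lay far below both WT libraries, which is what their genotype labels state. By fragments per kilobase of coding sequence, scaled to library size (FPKM, the authors' deposited values) Piwil1 ranked 776 and 821 among 15264 genes in the WT libraries, and 13461 and 14163 in the null libraries.

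Of 15264 genes tested, 9035 (59.2%) passed an adjusted p under 0.05, 4528 of them higher (29.7%) and 4507 lower (29.5%) in null; "rose", "fell" and "called" here refer to this threshold. More than 2-fold changes were made by 2287 genes (15.0%), 1151 higher (7.54%) and 1136 lower (7.44%). A change of more than 8-fold was reached by 74 genes upward and 73 downward, and the median over all genes was -0.01. Because so many genes pass, a list of genes is read below against these shares and this median. The 2 WT and 2 null libraries did not overlap in CPM in 78.9% of all genes tested. Genes that fell more than 2-fold held 11.4% and 11.3% of the counts of the WT libraries and 3.72% and 3.71% of those of the null libraries, whereas genes that rose more than 2-fold went from 2.46% and 2.62% to 7.10% and 7.08%. Whole testes were used, so that fewer cells of a type and less RNA per cell cannot be told apart, and every value is relative to the bulk of the RNA in the same library.

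**Figure D1:**
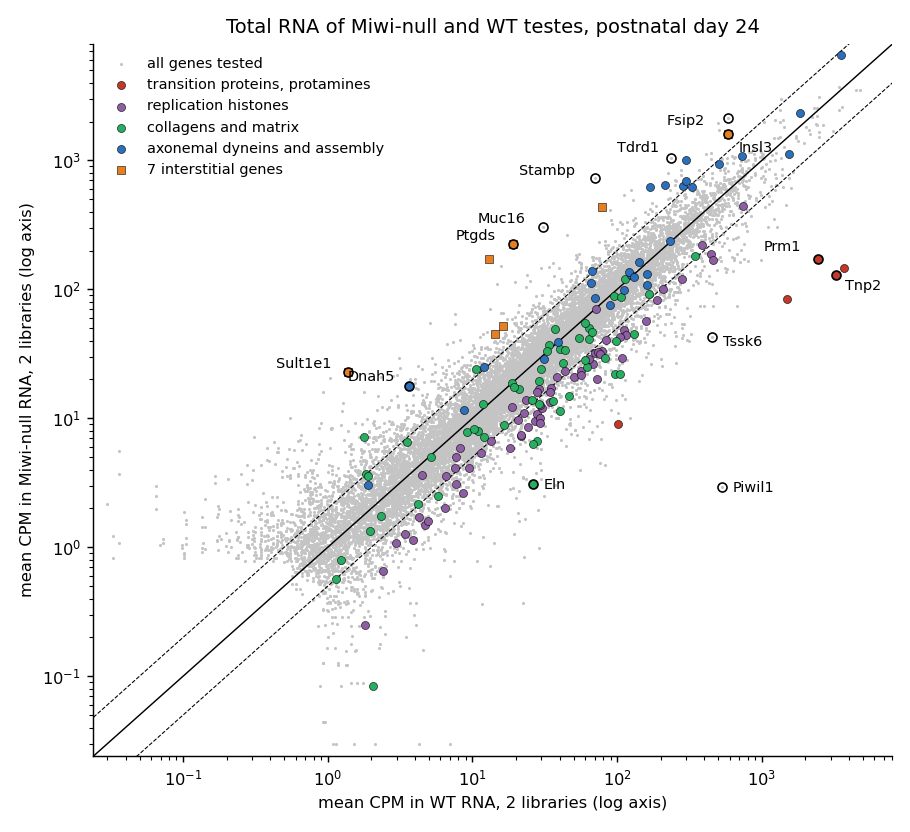
Mean CPM of each gene tested in the 2 Miwi-null RNA libraries (vertical, log axis) against the 2 WT RNA libraries (horizontal, log axis), with the line of equal level and dashed lines at 2-fold. Coloured points are members of 4 gene lists and 7 interstitial genes, rings mark the genes written beside them, and 7 genes with no count in a group are set at 0.03 on that axis; the transition proteins and protamines lie far below the line and Insl3, Ptgds and Sult1e1 above it.

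The largest decreases were of genes of late spermatids and of several genes with little described function. The 30 largest, each with non-overlapping libraries and a mean of at least 5 CPM in the higher group, ran from 3.23 upward on the log2 scale; 9 stood in a gene list and their median coding length was 537 bases, against 1494 bases for the 30 largest increases. The testis serine protease gene Prss51 stood at 27.3 and 30.05 CPM in WT and 1.01 and 0.976 CPM in null and Odf3b, of the outer dense fibre list, at 22.05 and 23.7 CPM in WT and 0.7002 and 0.976 CPM in null. Both had null libraries under 1.1 CPM. The predicted gene Gm14226 fell by 5.86 ± 0.49, 1700092M07Rik fell by 4.24 ± 0.15, Faiml by 4.22 ± 0.37 and 1700012A03Rik by 4.07 ± 0.14. St6galnac2, a sialyltransferase, stood at 259.7 and 252 CPM in WT and 28.9 and 25.3 CPM in null, a fall of 3.23 ± 0.08. A further gene entry with the same symbol, outside the 30, stood at 735 and 605 CPM in WT and 77.8 and 72.1 CPM in null; reads of the pair may have been split between them. Hoxb3, a homeobox transcription factor, fell by 3.69 ± 0.30, Chrna5, a nicotinic receptor subunit, by 3.58 ± 0.42, and Tex37 fell by 3.603 ± 0.11. Klk1b9, a glandular kallikrein, had 99 and 105 counts in WT and 0 and 0 counts in null; against the limit that 3 counts per library would give, it was at least 28.2-fold lower. Its neighbour in the family, Klk1b8, fell by 3.91 ± 0.26. Kallikreins share sequence, and how reads that map to several genes were counted is not given in the sources used here, so both values are uncertain.

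The largest increases were mostly of genes at low levels in WT. Stambp, an endosomal deubiquitinase, was the exception, at 72.5 and 67.8 CPM in WT and 734 and 724 CPM in null, a rise of 3.38 ± 0.06 (adjusted p = 5.51e-24). Its FPKM rank went from 3042 and 3229 to 101 and 104. Muc16, a large membrane mucin, stood at 32.1 and 29.2 CPM in WT and 314 and 296 CPM in null and Zfp184, a zinc finger gene, at 15.4 and 16.2 CPM in WT and 151 and 154 CPM in null. In each of these 3 genes both null libraries lay several-fold above both WT libraries. Trh, the precursor of thyrotropin-releasing hormone, rose by 4.31 ± 0.27, Fetub by 4.48 ± 0.49, Fat2 by 3.97 ± 0.46, the glutamate receptor gene Grik1 by 3.93 ± 0.44, the sodium channel gene Scn2a by 3.24 ± 0.17 and the deubiquitinase gene Usp51 by 3.36 ± 0.25. Insl5, a relaxin-family hormone, went from 0.522 and 0.363 to 5.21 and 5.76 CPM. Zfp804b had 0 and 1 counts in WT and 67 and 68 counts in null. Of the 30 largest increases 9 were on chromosome X, 8 of them Btbd35f genes, which are near-identical copies and cannot be counted as separate events. None of the 30 largest decreases was on chromosome X.

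**Figure D2:**
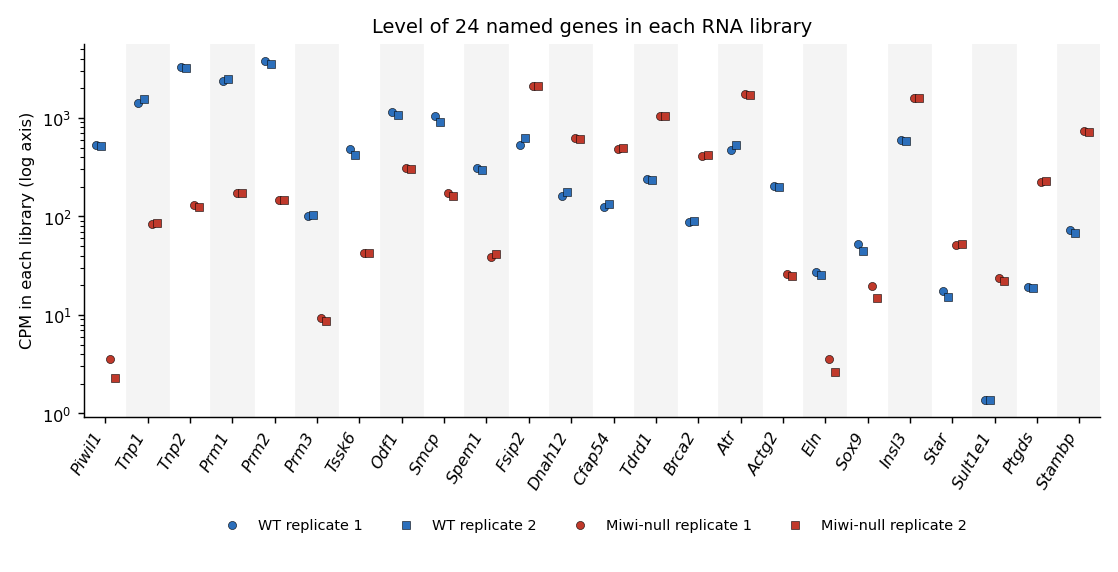
CPM (log axis) of 24 named genes in each of the 4 RNA libraries, WT in blue and Miwi-null in red, with circles for replicate 1 and squares for replicate 2. Points of the same group lie close together beside the distance between the groups, widest for Piwil1 at 536 and 520 CPM in WT against 3.58 and 2.31 in null.

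The genes that compact sperm DNA lost most of their RNA. Transition proteins take the place of histones in elongating spermatids, and protamines then take the place of the transition proteins. All 5 members of this list fell more than 2-fold (7.44% of all genes did so), with a median log2 change of -4.14. Prm2, protamine 2, stood at 3791 and 3567 CPM in WT and 147 and 147 CPM in null, and Prm1, protamine 1, at 2365 and 2504 CPM in WT and 172 and 174 CPM in null. Tnp2, transition protein 2, stood at 3318 and 3187 CPM in WT and 131 and 126 CPM in null, and Tnp1 at 1416 and 1568 CPM in WT and 84.2 and 85.6 CPM in null. Prm3, an acidic protein encoded between Tnp2 and Prm2, stood at 101 and 102 CPM in WT and 9.41 and 8.78 CPM in null. In all 5 genes both null libraries lay more than 10-fold below both WT libraries, and the 2 null libraries nearly coincided. The falls were 4.66 ± 0.05, 4.64 ± 0.05, 4.14 ± 0.06, 3.81 ± 0.05 and 3.48 ± 0.11 for Tnp2, Prm2, Tnp1, Prm1 and Prm3 on the log2 scale. Per length, Prm1, Prm2, Tnp2 and Tnp1 were the 4 most abundant transcripts of both WT libraries by the authors' FPKM, Prm1 at 12616 and 13247 FPKM. In the null libraries Prm1 ranked 25 and 25, at 918 and 928 FPKM, Tnp1 125 and 123, Prm2 154 and 155, and Tnp2 226 and 251. The 4 transcripts thus left the top of the ranking but stayed among the 251 most abundant genes of each null library. Their coding sequences are short, 153 bases in Prm1, 165 in Tnp1, 321 in Prm2 and 351 in Tnp2, and after removal of the coding length trend Tnp2 changed by -4.31, Prm2 by -4.27, Tnp1 by -3.54, Prm1 by -3.197 and Prm3 by -3.09.

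The sequences before the start sites of these 5 genes are shown because the genes share the largest falls of any list. Each is the 150 bases upstream of the RefSeq start (RefSeq, GRCm38.p6, 5′ to 3′ on the gene's strand), and capitals mark 8 bases that match the cAMP response element TGACGTCA, on either strand, with at most 1 base changed.
Prm1 (chr16:10796824-10796973, minus strand): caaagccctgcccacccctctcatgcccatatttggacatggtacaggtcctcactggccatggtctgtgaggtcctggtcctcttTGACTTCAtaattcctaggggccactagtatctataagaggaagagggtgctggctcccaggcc
Prm2 (chr16:10792106-10792255, minus strand): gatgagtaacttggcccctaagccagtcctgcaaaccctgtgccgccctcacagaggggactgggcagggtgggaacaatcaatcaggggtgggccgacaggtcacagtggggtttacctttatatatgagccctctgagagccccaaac
Prm3 (chr16:10790915-10791064, minus strand): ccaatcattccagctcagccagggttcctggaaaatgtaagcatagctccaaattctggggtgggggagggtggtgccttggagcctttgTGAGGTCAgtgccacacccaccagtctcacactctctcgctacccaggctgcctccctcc
Tnp1 (chr1:73015900-73016049, minus strand): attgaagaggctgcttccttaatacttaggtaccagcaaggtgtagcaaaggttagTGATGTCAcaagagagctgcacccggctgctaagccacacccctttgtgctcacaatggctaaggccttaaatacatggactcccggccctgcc
Tnp2 (chr16:10788656-10788805, minus strand): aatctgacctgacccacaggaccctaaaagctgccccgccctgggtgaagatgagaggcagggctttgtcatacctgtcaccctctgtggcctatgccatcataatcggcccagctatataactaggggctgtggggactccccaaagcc
The unchanged element TGACGTCA was in none of the 5 windows of 250 bases before to 50 after the start, against 2.03% of the 27025 genes with such a window and 3.31% of the tested genes that had one. With at most 1 base changed it was in 3 of the 5, as TGACTTCA in Prm1, TGATGTCA in Tnp1 and TGAGGTCA in Prm3, starting at positions -64, -94 and -60 from the start. That form was in 14.2% of all genes with a window, in 16.0% of those tested, in 19.4% of those that fell more than 2-fold and in 17.8% of those that rose more than 2-fold. The search with 1 base changed was chosen after the sequences had been read. A match is a description of letters and shows neither binding nor a cause.

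Histone genes fell as well. Of 15 germ cell histone variants 12 fell and 2 rose (8 and 0 more than 2-fold), with a median of -1.28. H1fnt, a linker histone of spermatids, stood at 669 and 623 CPM in WT and 182 and 168 CPM in null, and Hils1, another, at 605 and 575 CPM in WT and 201 and 206 CPM in null. H2afx, the variant phosphorylated at DNA breaks and on the XY body, stood at 1106 and 996 CPM in WT and 438 and 428 CPM in null, a fall of 1.28 ± 0.05. Both null libraries lay below both WT libraries in these 3 genes. Hist1h2ba and Hist1h1t, the testis H2B and H1 of spermatocytes, fell less, by 0.67 ± 0.05 and 0.35 ± 0.05, whereas the general variants H2afz and H3f3a rose by 0.20 ± 0.06 and 0.17 ± 0.05. With the length trend removed these 4 values were -0.35, -0.22, 0.52 and 0.47. Of 64 replication histone genes 62 fell and none rose, 49 of them more than 2-fold, with a median of -1.25, and of -0.94 once the coding length trend was removed. Their summed level was 4828 and 4829 CPM in WT and 2230 and 2268 CPM in null. Hist1h4k stood at 99.5 and 115 CPM in WT and 28.6 and 30.5 CPM in null and Hist2h2aa2, at the highest level of the list, at 765 and 719 CPM in WT and 441 and 449.8 CPM in null. Most of these genes are near-identical copies, so the count of genes is not a count of separate changes. Replication histone RNA ends without a poly(A) tail, and the labels do not say how the RNA was selected.

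Regulators of histone removal split. Of 15 tested, 6 rose and 7 fell, with a median of -0.10. Tssk6, a kinase needed for the exchange of histones, stood at 483 and 423 CPM in WT and 42.3 and 42.7 CPM in null, a fall of 3.41 ± 0.07. Cdyl, a chromodomain protein, fell by 1.39 ± 0.05 and the remodeller gene Chd5 by 0.87 ± 0.05. Higher instead were the ubiquitin ligase gene Trip12 by 0.88 ± 0.05, the proteasome activator gene Psme4 by 0.86 ± 0.05 and the bromodomain gene Brwd1 by 0.77 ± 0.06. Brdt, the testis bromodomain protein that binds acetylated histones, rose by 0.53 ± 0.05, and Phf7 by 0.18 ± 0.04. The groups of Tssk6 did not overlap and lay about 10-fold apart, while those of Phf7 lay close to each other.

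The flagellum's parts did not move alike. Dense fibres and the fibrous sheath surround the axoneme of the sperm tail and are laid down late, while dynein arms, radial spokes and the central pair belong to the axoneme itself. Of 11 outer dense fibre genes tested, 9 fell and 2 rose, with a median of -0.87. Odf1, a main fibre protein, stood at 1155 and 1061 CPM in WT and 308 and 305 CPM in null, and Odf2 at 3129.7 and 3082 CPM in WT and 1680.1 and 1715 CPM in null. Spert fell by 2.18 ± 0.05 and Oaz3, an antizyme of spermatids, by 1.82 ± 0.05, whereas Odf2l rose by 0.48 ± 0.09 and Spag5 by 0.22 ± 0.05. The fibrous sheath list had 9 of 12 lower and 1 higher, with a median of -0.34. Its scaffold genes Akap4 and Akap3 fell by 1.07 ± 0.05 and 0.83 ± 0.05, and Spa17, a protein of the sheath, fell by 2.33 ± 0.07. Fsip2 was the member that rose, from 536 and 629 to 2133 and 2115 CPM, a change of 1.87 ± 0.06. Both null libraries of Fsip2 lay above both WT libraries, opposite to Akap4. Its coding sequence is long, and with the length trend removed its change was 1.204.

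The axoneme lists leaned upward. Axonemal dyneins and their assembly factors had 19 of 29 higher and 5 lower (8 and 0 more than 2-fold), with a median of 0.42, and of 0.18 with the length trend removed. Dnah8, a heavy chain of the sperm tail, was the most abundant member and stood at 3540.2 and 3565 CPM in WT and 6581 and 6522 CPM in null. Dnah12 stood at 161 and 176 CPM in WT and 619.9 and 615 CPM in null and Dnah6 at 289 and 306 CPM in WT and 691 and 685 CPM in null. In all 3 both null libraries lay above both WT libraries. Dnah5 rose by 2.28 ± 0.17, Dnah7b by 1.74 ± 0.05 and Dnah7a by 1.59 ± 0.05; the Dnah7 genes are near copies of each other. With the length trend removed these changes were 1.77, 1.41, 1.27, 1.13, 0.74 and 0.36 for Dnah5, Dnah12, Dnah7b, Dnah7a, Dnah6 and Dnah8. The shorter members went the other way: Dnali1, a light intermediate chain, fell by 0.57 ± 0.07 and the assembly factor gene Dnaaf1 by 0.48 ± 0.05.

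Radial spoke and central pair genes had the highest median of all lists, 0.64, with 22 of 31 higher and 4 lower. Cfap54, of the central pair, stood at 124 and 134 CPM in WT and 487 and 497 CPM in null, and Cfap70 at 221 and 231 CPM in WT and 502 and 499 CPM in null. Both null libraries lay above both WT libraries in each. Cfap43 and Cfap44, which tether the dynein arms, rose by 1.02 ± 0.05 and 1.09 ± 0.06, and Spef2 by 1.01 ± 0.07. Gas8, a subunit of the nexin-dynein regulatory complex, fell by 1.21 ± 0.08 and Spag6 by 0.76 ± 0.06. Of 34 genes of intraflagellar transport and the BBSome, the trains that carry cargo along cilia, 24 rose and 3 fell, with a median of 0.41 that was 0.41 with the length trend removed. Dync2h1, the heavy chain of the retrograde motor, rose by 1.49 ± 0.05, Ttc26 by 1.14 ± 0.09 and Ift88 by 0.98 ± 0.06, while Ift43 fell by 0.61 ± 0.07. Tektins and doublet proteins had 14 of 25 lower and 5 higher, with Spaca9 at -1.37 ± 0.06, Tekt5 at -0.84 ± 0.06 and Enkur at 0.78 ± 0.06.

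**Figure D3:**
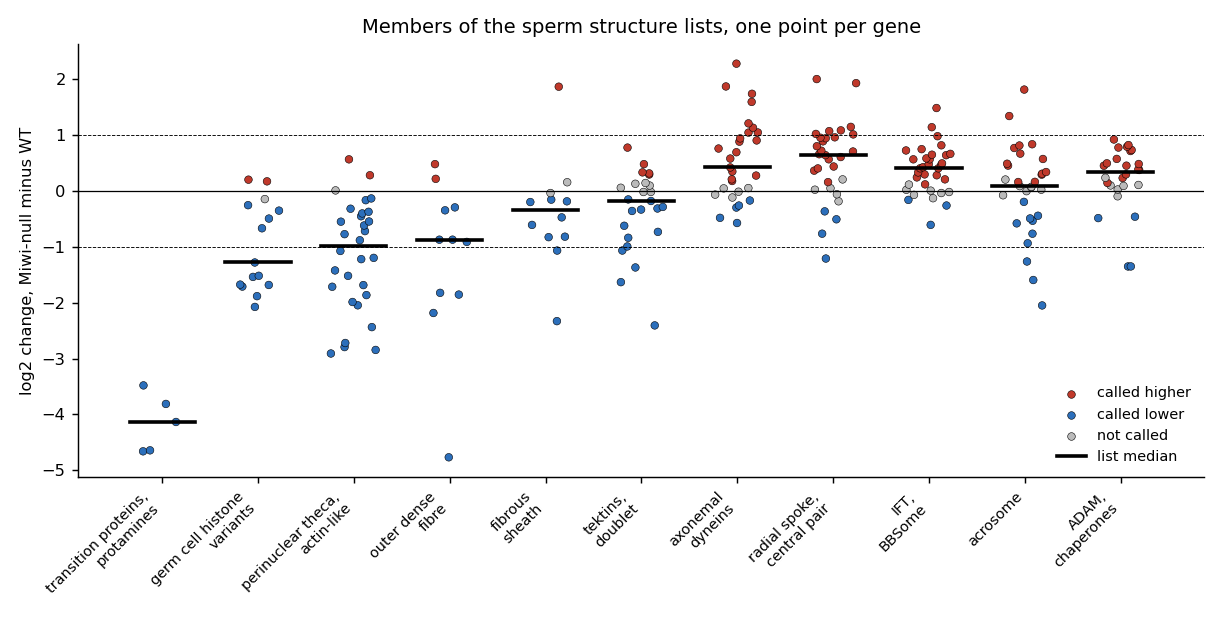
Log2 change (Miwi-null minus WT) of the tested members of 11 lists of sperm structures, 1 point per gene, red where called higher, blue where called lower and grey where not called, with the list median as a bar and dashed lines at 2-fold. Medians go from -4.14 for transition proteins and protamines to 0.64 for radial spoke and central pair genes.

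Genes of the perinuclear theca mostly fell. The perinuclear theca is the shell between the nucleus and the acrosome, and the list also holds the actin-like proteins of spermatids. Of 30 members 27 fell, 15 more than 2-fold, and 2 rose, with a median of -0.98. Spem1, needed for shedding of spermatid cytoplasm, stood at 308 and 296 CPM in WT and 38.7 and 41.7 CPM in null, and its relative Spem2 at 333 and 315 CPM in WT and 46.3 and 43.7 CPM in null. Actrt2, an actin-related protein of the theca, stood at 576 and 567 CPM in WT and 143 and 145 CPM in null. Null libraries lay at least several-fold below WT libraries in each of the 3. Wbp2nl, a theca protein, fell by 2.05 ± 0.09, Spata3 by 2.79 ± 0.08, and the ketone body enzyme gene Oxct2a by 2.44 ± 0.06; Oxct2b, a close copy, fell by 2.72 ± 0.07. Spata31 and the profilin gene Pfn4 rose, by 0.57 ± 0.05 and 0.28 ± 0.08.

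Acrosome genes split. Of 31 acrosome matrix and membrane genes 14 rose and 10 fell, with a median of 0.09; with all 8 libraries of the series in the fit it was 6 higher and 10 lower. Tex101, a surface protein of germ cells, stood at 232 and 221 CPM in WT and 802 and 790.4 CPM in null, and Crisp2 at 422 and 478 CPM in WT and 802 and 805 CPM in null. Both lay higher in both null libraries. The hyaluronidase genes Hyal5 and Spam1 rose by 0.81 ± 0.09 and 0.77 ± 0.08 and Acrv1 by 0.49 ± 0.06. Sppl2c, a protease of the secretory path, fell from 591 and 544 to 137 and 137 CPM, Prss55 by 1.59 ± 0.07 and Prss37 by 1.26 ± 0.07. Genes of acrosome formation and vesicle traffic had 12 of 21 higher and 5 lower, with Vps13b at 1.07 ± 0.05, the syntaxin gene Stx2 at 1.02 ± 0.09 and Fam209 at -0.94 ± 0.08. Of 12 sperm-egg fusion genes 5 fell and 3 rose; Izumo2 fell by 1.75 ± 0.12, Tmem95 rose by 1.11 ± 0.21, and Izumo1, the ligand of the egg's receptor, stood at 54.8 and 51.7 CPM in WT and 51.4 and 56.5 CPM in null, with overlapping groups and no call.

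ADAM proteases of the sperm surface and their chaperones had 16 of 26 higher and 4 lower, with a median of 0.34. Adam3, needed for passage into the oviduct, stood at 617 and 635 CPM in WT and 1084 and 1083 CPM in null and rose by 0.79 ± 0.05; Adam18 rose by 0.78 ± 0.07 and the chaperone gene Pdilt by 0.73 ± 0.06. The chaperone gene Calr3 and the angiotensin-converting enzyme gene Ace went down, by 1.35 ± 0.07 and 1.35 ± 0.05. Testis serine proteases and inhibitors had 11 of 21 lower, 8 more than 2-fold, and 7 higher. The falls were of Prss51, Prss58 (-2.17 ± 0.10) and the cystatin genes Cstl1 (-2.91 ± 0.16) and Cst8 (-1.800 ± 0.08). The cluster members Prss42, Prss43 and Prss46 rose by 0.78 ± 0.09, 0.89 ± 0.11 and 0.68 ± 0.07.

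Among ion transport and cAMP genes 12 of 25 rose and 5 fell. CatSper is the calcium channel of the sperm tail; its auxiliary subunit genes Catsperb and Catsperg1 rose by 1.205 ± 0.08 and 0.80 ± 0.05 and the pore gene Catsper2 by 0.80 ± 0.05, while the pore gene Catsper1 fell by 0.27 ± 0.06. Slc9c1, the sperm sodium-proton exchanger, rose by 1.19 ± 0.07. Atp1a4, the sperm sodium pump, fell by 1.06 ± 0.05 and Prkar2a, a regulatory subunit of protein kinase A, from 142 and 140.4 to 38.7 and 38.8 CPM. Testis kinases and phosphatases had 9 of 22 lower and 7 higher. Tssk2 stood at 569 and 537 CPM in WT and 148 and 146 CPM in null; it and its substrate gene Tsks fell by 1.92 ± 0.05 and 1.29 ± 0.05, Tssk3 by 1.23 ± 0.07 and Tssk1 by 0.83 ± 0.05. Tssk5 rose by 0.66 ± 0.12 and Nek1 by 0.94 ± 0.07.

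Energy genes of germ cells fell more often than they rose, 12 against 7 of 22. Gapdhs, the sperm form of a glycolytic enzyme, stood at 1232 and 1198 CPM in WT and 349.8 and 352 CPM in null, and Hk1, hexokinase, at 1585 and 1499.9 CPM in WT and 748 and 722 CPM in null. Null libraries lay below WT libraries in both. Gpi1 fell by 1.54 ± 0.05 and Aldoart2 by 1.05 ± 0.05, whereas Pfkm rose by 0.54 ± 0.06 and Ldhc, the testis lactate dehydrogenase, by 0.15 ± 0.05. Of 20 testis mitochondrial and midpiece genes 13 fell and 3 rose. Smcp, a protein of the mitochondrial sheath, stood at 1049 and 917 CPM in WT and 175 and 162 CPM in null; its FPKM rank went from 11 and 14 to 195 and 223. Spata18 fell by 2.37 ± 0.05 and Gpx4, a selenoenzyme of the midpiece, by 0.77 ± 0.05. The manchette is a transient skirt of microtubules that shapes the spermatid head. Manchette and head-tail coupling genes had 12 higher and 13 lower of 30, an even split whose lean turned without TMM scaling (13 and 12). Tppp2 fell by 2.84 ± 0.10 and Meig1 fell by 1.403 ± 0.07, while Tsga10 rose by 0.70 ± 0.05.

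Meiotic genes leaned upward. Of 38 genes of recombination and its checkpoint 19 rose and 2 fell, with a median of 0.24 (0.14 with the length trend removed). Brca2, which loads recombinases onto broken DNA, stood at 88.00 and 90.7 CPM in WT and 408 and 417 CPM in null. Atr, a checkpoint kinase that acts on the XY body, stood at 469.9 and 536 CPM in WT and 1733 and 1712 CPM in null. In both, the null libraries lay more than 3-fold above the WT libraries. Tex15 rose by 1.28 ± 0.06, Mcmdc2 by 1.42 ± 0.16, Brca1 by 1.02 ± 0.08 and Spo11, which makes the breaks, by 0.74 ± 0.09. Psmc3ip fell by 0.94 ± 0.07. Dmc1, a recombinase of spermatocytes, stood at 9.33 and 13.7 CPM in WT and 10.6 and 9.67 CPM in null, with overlapping groups and no call. Cohesin and telomere attachment genes had 10 of 20 higher and 2 lower, with the cohesin loader gene Nipbl at 1.19 ± 0.05, Terb1 at 1.13 ± 0.11 and the meiotic cohesin gene Smc1b at 1.03 ± 0.06.

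Of 17 synaptonemal complex and HORMAD genes 7 rose and 4 fell. Sycp2, of the axial element, stood at 158 and 189 CPM in WT and 474 and 462 CPM in null, and its partner Sycp3 rose by 0.47 ± 0.09. Hormad1 rose by 0.73 ± 0.08. Syce3 and Syce2, of the central element, fell by 1.601 ± 0.09 and 0.59 ± 0.08. Genes of the meiotic division and spindle were nearly even, 16 higher and 14 lower of 38; without null RNA replicate 1 it was 13 and 8. The kinetochore genes Knl1, Cenpe and Ttk rose by 1.803 ± 0.08, 1.34 ± 0.06 and 1.27 ± 0.07, Ube2c, of the anaphase promoting complex pathway, by 1.46 ± 0.09 and Cdc25c by 1.28 ± 0.13. Plk1 fell by 0.48 ± 0.06 and Cdc25b by 1.09 ± 0.28. Spermatogonial genes had 16 of 30 lower and 4 higher. Stra8, which starts meiosis in response to retinoic acid, stood at 17.7 and 18.2 CPM in WT and 8.25 and 8.16 CPM in null, Sall4 at 14.1 and 15.3 CPM in WT and 5.29 and 6.47 CPM in null and Kit at 38.03 and 37.2 CPM in WT and 45.05 and 46.1 CPM in null. The WT libraries of Stra8 and Sall4 lay above the null ones, and those of Kit below. Zbtb16 (-0.25 ± 0.14) and Gfra1 (0.29 ± 0.24), genes of undifferentiated spermatogonia, were not called.

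Genes of the piRNA machinery leaned upward, Piwil1 itself aside. Nuage is the cytoplasmic granule in which piRNAs are made. Of 37 PIWI and nuage genes 22 rose and 5 fell, Piwil1 included, with a median of 0.33. Tdrd1, a Tudor scaffold, stood at 240.1 and 235 CPM in WT and 1036 and 1057 CPM in null. Ddx4, the germ cell helicase VASA, stood at 258 and 320.3 CPM in WT and 546 and 541 CPM in null. Both null libraries lay above both WT libraries in each, more than 4-fold for Tdrd1. Henmt1, which methylates piRNA ends, rose by 1.43 ± 0.08, Tdrd12 by 1.05 ± 0.08, Gtsf2 by 1.04 ± 0.08 and Rnf17 by 0.93 ± 0.06, while Gtsf1l fell by 0.47 ± 0.05 and Fkbp6 by 0.44 ± 0.08. Piwil2, which encodes the PIWI protein MILI, stood at 271 and 268 CPM in WT and 417 and 407 CPM in null and rose by 0.61 ± 0.05. Piwil4, at 0.652 and 1.02 CPM in WT and 0.545 and 1.24 CPM in null, was not called and its groups overlapped. Mael, a nuage protein at 918 and 1016 CPM in WT, rose by 0.14 ± 0.05.

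RNA-binding regulators of germ cells were nearly even, with 18 of 47 higher, 15 lower and a median of 0.10; with all 8 libraries it was 7 higher and 9 lower. Ybx2, which coats stored mRNAs in spermatids, stood at 1976 and 1929 CPM in WT and 1345 and 1369 CPM in null and Ybx1 at 1356 and 1408 CPM in WT and 874 and 855 CPM in null. Both were lower in both null libraries. Igf2bp1 fell by 1.14 ± 0.14 and Cpeb2 by 0.56 ± 0.05, whereas Pum2, a translational repressor, rose by 0.93 ± 0.06, Meioc by 0.67 ± 0.06 and Boll by 0.67 ± 0.07. Poly(A) tail genes had 19 of 37 higher and 9 lower, and 9 and 5 with all 8 libraries. Cnot1, the scaffold of the CCR4-NOT deadenylase, stood at 1007 and 1073 CPM in WT and 1973 and 1983 CPM in null; its partners Cnot2 and Cnot7 rose by 0.95 ± 0.07 and 0.56 ± 0.09, and the testis poly(A) polymerase gene Tent5d by 1.02 ± 0.10. Pabpc1l fell by 1.51 ± 0.34, Pabpn1 by 0.72 ± 0.07 and Tent5c by 0.55 ± 0.05.

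Transcription regulators of spermatocytes and spermatids had 15 of 33 higher and 8 lower, with a median of 0.05. Spz1 fell by 1.34 ± 0.05, Sox30, which acts at the entry into spermiogenesis, by 0.92 ± 0.05, and Fhl5, a coactivator of CREM, by 0.77 ± 0.07. Hsf2, a heat shock factor, rose by 0.94 ± 0.08, Tbpl1, a testis-enriched relative of the TATA-binding protein, by 0.59 ± 0.06, and Mybl1, which drives the pachytene program, by 0.47 ± 0.07. Crem itself stood at 129 and 137 CPM in WT and 156 and 167 CPM in null (0.28 ± 0.06). Rfx2, another regulator of spermiogenesis, stood at 659.5 and 544 CPM in WT and 557 and 561 CPM in null (-0.11 ± 0.06). Both changes were far smaller than those of the transition protein and protamine genes, and a link between them was not tested. Rfx2 was not called, and Crem was not called with all 8 libraries in the fit.

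Sex chromosome genes were uneven. Of 27 X and Y genes of spermatids 11 rose and 12 fell; with the length trend removed it was 12 and 11. On chromosome Y, 23 of 55 tested genes rose more than 2-fold (41.8%, against 7.54% of all genes) and 2 fell. Most of the 23 had a mean under 10 CPM, where such rises were more frequent in general. Among all genes tested, 24.1% of those under 1 CPM and 10.7% of those at 1 to 10 CPM rose more than 2-fold. Zfy2, a zinc finger gene that acts in meiosis, stood at 7.18 and 7.69 CPM in WT and 27.2 and 26.1 CPM in null, and Usp9y, a deubiquitinase gene, at 9.52 and 12.4 CPM in WT and 22.9 and 26.9 CPM in null. Ssty2, a multicopy gene of spermatids, stood at 1.76 and 2.98 CPM in WT and 10.97 and 13.4 CPM in null. The null libraries lay above the WT libraries in these 3 genes. Eif2s3y, a translation initiation factor needed in spermatogonia, rose by 1.002 ± 0.10 and Zfy1 by 0.74 ± 0.19, while Rbm31y and Uba1y fell by 0.51 ± 0.12 and 0.28 ± 0.08. Ddx3y (0.34 ± 0.16), Kdm5d (0.23 ± 0.17) and Uty (0.18 ± 0.20) were not called, and neither was Sly (-0.23 ± 0.20). Many of the other Y genes are multicopy, so their number is not a number of separate changes. On chromosome X 84 of 655 genes (12.8%) rose more than 2-fold, 29 of them Btbd35f genes, and 56 (8.55%) fell. Among spermatid genes of X, Cypt15 fell by 2.16 ± 0.28 and Akap4 by 1.07 ± 0.05, while Spaca5 rose by 1.34 ± 0.16 and Tgif2lx1 by 0.91 ± 0.17.

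In the interstitium, Insl3 rose, genes of steroid synthesis went both ways, and most of the called Leydig cell regulators fell. Leydig cells make testosterone from cholesterol and secrete INSL3. Of 18 steroid synthesis genes tested 6 rose and 5 fell, with a median of -0.03 that was 0.16 with the length trend removed. Their share called, 61.1%, was close to the 59.2% of all genes. A further 6 had too few counts to be tested. Star, which moves cholesterol into mitochondria, stood at 17.5 and 15.2 CPM in WT and 51.04 and 52.1 CPM in null. Hsd17b3, which makes testosterone from androstenedione, stood at 13.9 and 14.6 CPM in WT and 42.5 and 47.98 CPM in null. Cyp17a1 stood at 237 and 229 CPM in WT and 338 and 334 CPM in null. In these 3 genes both null libraries lay above both WT libraries, with the widest gap in Star and Hsd17b3. Hsd3b6 and Hsd3b1 rose by 0.60 ± 0.07 and 0.56 ± 0.07. With all 8 libraries in the fit Cyp17a1 and Hsd3b1 were not called. Cyp11a1, the enzyme of the initial step, went the other way, at 193 and 204 CPM in WT and 115 and 112 CPM in null, a fall of 0.81 ± 0.06. Cyp19a1, aromatase, fell by 1.48 ± 0.31 and Srd5a1, a 5-alpha-reductase that marks immature Leydig cells, by 1.43 ± 0.21. Sult1e1, estrogen sulfotransferase, stood at 1.37 and 1.38 CPM in WT and 23.8 and 22.2 CPM in null.

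Of 31 Leydig hormones, receptors and regulators 8 rose and 19 fell (5 and 3 more than 2-fold), with a median of -0.30. Insl3, the hormone that guides testis descent, stood at 591 and 579.7 CPM in WT and 1597 and 1608 CPM in null, and its FPKM rank went from 27 and 25 in WT to 1 and 1 in null, at 3554 and 3581 FPKM. Ptgds, a prostaglandin D synthase and the gene with the largest rise in the list, stood at 19.4 and 18.9 CPM in WT and 224 and 228 CPM in null. Ren1, renin, stood at 0.326 and 0.943 CPM in WT and 4.28 and 4.26 CPM in null. None of these groups overlapped. Agt, angiotensinogen, also rose more than 2-fold, and Vcam1 rose by 0.87 ± 0.06. Lhcgr, the luteinizing hormone receptor, fell by 0.57 ± 0.13, Nr4a1, induced by that receptor, by 1.11 ± 0.09, Dlk1, of immature Leydig cells, by 1.66 ± 0.42, Igf1 by 1.03 ± 0.25 and Inha, an inhibin subunit, by 0.84 ± 0.06. With all 8 libraries in the fit Lhcgr was not called.

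Small-molecule enzymes of the interstitium had 12 of 32 higher and 9 lower, against 29.7% higher and 29.5% lower over all genes. Bhmt, betaine-homocysteine methyltransferase, stood at 13.05 and 12.8 CPM in WT and 172 and 173 CPM in null. Gsta3 rose by 1.34 ± 0.11, Gstm1 by 0.97 ± 0.05 and Ugt1a6a, one of a set of genes with shared exons, by 1.400 ± 0.08. Cholesterol and lipid genes had 13 of 44 lower and 8 higher, a share lower close to the 29.5% of all genes. Lipe, a hormone-sensitive lipase, was at -1.29 ± 0.06, Apoc1 at 3.17 ± 0.19 and the fatty acid receptor gene Cd36 at 1.47 ± 0.14. Retinoid genes had 10 of 18 lower, 5 more than 2-fold, and 3 higher. Rdh10, which makes retinaldehyde, stood at 19.8 and 18.9 CPM in WT and 6.77 and 6.47 CPM in null, and Stra6, the receptor for retinol-binding protein, fell by 1.01 ± 0.16. Cyp26a1 and Cyp26b1, which break down retinoic acid, fell by 2.104 ± 0.47 and 0.40 ± 0.08, whereas Lrat and Rdh11 rose by 0.71 ± 0.16 and 0.44 ± 0.05.

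Sertoli cell genes fell more often than they rose. Sertoli cells nurse the germ cells and form the blood-testis barrier. Transcription factors and signalling genes had 19 of 27 lower and 4 higher, with a median of -0.54 with or without the length trend. Sox9, the factor that sets Sertoli identity, stood at 52.2 and 44.8 CPM in WT and 19.8 and 14.99 CPM in null. Amh, a hormone of immature Sertoli cells, stood at 13.6 and 12.99 CPM in WT and 4.28 and 3.46 CPM in null. Both null libraries lay below both WT libraries. Dmrt1 fell by 1.05 ± 0.10, Fshr, the receptor for follicle-stimulating hormone, by 0.91 ± 0.21, Wt1 by 0.75 ± 0.08 and Rhox5 by 0.75 ± 0.17, while Kitl rose by 0.50 ± 0.15 and Cxcl12 by 0.74 ± 0.21. Ptgds, also in this list, is described above. Secreted and metabolic genes had 18 of 32 lower and 2 higher, with Aard at -1.39 ± 0.10, the lactate exporter gene Slc16a3 at -1.66 ± 0.20 and Clu at -0.31 ± 0.05. Barrier and junction genes had 9 of 29 lower and 5 higher, with a median of -0.10. The share lower was close to the 29.5% of all genes, and 29.7% of all genes were higher. Cldn3 fell by 1.73 ± 0.22 and Cldn11 by 0.37 ± 0.07, and Tjp1 rose by 0.57 ± 0.05.

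Contractile and matrix genes were lower. Of 23 smooth muscle genes 13 fell and 5 rose, with a median of -0.59. Actg2 stood at 206 and 200.1 CPM in WT and 26.1 and 24.8 CPM in null, an 8-fold gap, and Acta2, the actin of peritubular myoid cells, at 89.4 and 87.7 CPM in WT and 58.3 and 52.4 CPM in null. Myh11 fell by 0.91 ± 0.08 and Tpm2 by 1.87 ± 0.17, whereas Mylk and Flna rose by 0.32 ± 0.07 and 0.20 ± 0.06; neither was called with the length trend removed, where Flna stood at -0.12. Des, at -0.31 ± 0.17, was not called. Among 55 collagen and matrix genes 34 fell, 16 more than 2-fold, and 6 rose, with a median of -0.56. Eln, elastin, stood at 27.1 and 25.3 CPM in WT and 3.58 and 2.66 CPM in null, and Col3a1 at 107 and 103 CPM in WT and 19.7 and 24.1 CPM in null. Null libraries lay below WT libraries in both. Col1a1 fell by 2.13 ± 0.09, Col6a2 by 2.06 ± 0.13 and the collagen chaperone gene Serpinh1 by 2.05 ± 0.14, while Tnc, tenascin, rose by 1.99 ± 0.23, Col14a1 by 1.19 ± 0.12 and Postn by 1.01 ± 0.27.

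Markers of tissue around the testis moved with the contractile and matrix genes in part. The summed level of 12 adipose genes was 497 and 448 CPM in WT and 196 and 199 CPM in null, most of it Lipe, which germ cells also make. The defining adipose markers Adipoq and Plin1 stood at 8.48 and 8.71 CPM in WT and 4.05 and 3.99 CPM in null and at 7.31 and 7.62 CPM in WT and 1.32 and 1.77 CPM in null. Skeletal muscle genes summed to 104 and 101 CPM in WT and 125 and 122 CPM in null. Of their defining markers Acta1 and Myh4 had 0 to 4 counts per library and Ckm 38 and 28 counts in WT and 2 and 2 counts in null. Red blood cell genes, with 5 of 5 lower, summed to 81.1 and 69.5 CPM in WT and 48.5 and 46.9 CPM in null. The mesothelial markers Msln and Upk3b had 0 to 2 counts per library, although Muc16 and Krt8 of the same list rose, Krt8 by 0.81 ± 0.16. The part of these tissues in the falls of contractile and matrix genes was not tested.

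Immune and vascular lists were mixed. Macrophage markers had 7 of 26 higher and 4 lower, with a median of -0.04. That is a share called of 42.3%, against 59.2% of all genes. Csf1r, the macrophage growth factor receptor, stood at 24.6 and 23.8 CPM in WT and 24.9 and 25.01 CPM in null, and its levels in the groups lay close, with no call. Lyz2 and Adgre1 rose by 0.92 ± 0.12 and 0.62 ± 0.16, and Aif1, which spermatids also express, fell by 0.95 ± 0.08. Log2 changes in the macrophage list ran from -1.21 for Spi1 to 1.30 for Cd163. Antigen presentation and lymphocyte genes had 7 of 13 tested higher and none lower. A further 14 had too few counts to be tested. Among these, Cd3d had 10 and 12 counts in WT and 0 and 0 counts in null. Cd4 had 6 and 5 counts in WT and 9 and 14 counts in null. Tapbpl, an editor of peptides on MHC class I, stood at 5.15 and 5.08 CPM in WT and 58.8 and 51.2 CPM in null. The class II genes H2-Aa and H2-Eb1 rose by 0.91 ± 0.15 and 0.92 ± 0.16. The interferon list had 13 of 25 higher and 2 lower (8 and 2 more than 2-fold), with a median of 0.44. Eif2ak2, the double-stranded RNA sensor PKR, stood at 5.87 and 8.49 CPM in WT and 23.1 and 21.99 CPM in null. Ifih1, another sensor, rose by 1.097 ± 0.19 and Irf7 by 1.36 ± 0.27, while Bst2 fell by 1.07 ± 0.22. Most of the list stood under 10 CPM in both groups, and with DESeq2, with all 8 libraries or without null RNA replicate 1 the count higher was 8 in each case. Endothelial genes had 8 of 20 lower and 3 higher, with Egfl7 at -1.92 ± 0.27, Cdh5 at -0.50 ± 0.15, Kdr at 0.67 ± 0.22 and Pecam1, not called, at -0.09 ± 0.30.

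Stress and signalling lists were mixed. Immediate early genes, which answer growth and stress signals within minutes, had 10 of 25 lower and 1 higher. Jund stood at 238 and 223 CPM in WT and 69.1 and 72.99 CPM in null and Zfp36 at 8.94 and 6.53 CPM in WT and 1.79 and 1.95 CPM in null, lower in both null libraries, and Cyr61 was the member that rose, by 0.77 ± 0.22. Fos (0.42 ± 0.39) was not called. Of 26 p53 and apoptosis genes 8 rose and 6 fell, a share called of 53.8% against 59.2% of all genes. Bcl2l11 rose by 1.23 ± 0.20 (by 0.51, under 2-fold, when the longest transcript stood for the gene). Bax and Trp53 fell by 0.98 ± 0.18 and 0.77 ± 0.11. Stress response genes had 9 of 25 lower and 6 higher, a share called of 60%, also close to that of all genes. Herpud1 was at -1.64 ± 0.06, Asns at -0.80 ± 0.06 and Edem1 at 1.44 ± 0.08. Chaperones had 17 of 30 lower, 5 more than 2-fold, and 8 higher. Hspa1l, the spermatid HSP70, stood at 823 and 781 CPM in WT and 165 and 168 CPM in null, and Dnajb8 fell by 2.24 ± 0.07. Hsp90aa1 and Hsp90b1 rose by 0.57 ± 0.05 and 0.72 ± 0.05.

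Genes of ribosomes and the respiratory chain were mostly lower, and their medians moved toward 0 once the length trend was removed. Of 83 cytosolic ribosomal protein genes 60 fell and 7 rose, with a median of -0.41; with the length trend removed it was 45 and 14, with a median of -0.18. Rps29 fell by 1.43 ± 0.10 and Rpl19 by 1.26 ± 0.06, while Rpl10a and Rps27a rose by 0.70 ± 0.06 and 0.64 ± 0.08. Nuclear respiratory chain genes had 53 of 85 lower and 7 higher, with a median of -0.30, and 33 and 22 with a median of -0.08 once the trend was removed. Atp5k fell by 2.67 ± 0.20 and Ndufa13 by 2.06 ± 0.09, and Uqcrc2 rose by 0.73 ± 0.07. Mitochondrial ribosomal protein genes had 36 of 78 lower and 9 higher, and 21 and 19 with the trend removed.

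Transcripts of the mitochondrial genome kept a lower median when the trend was removed, -0.96 before and -0.71 after, with 10 of 12 lower and 1 higher. mt-Cytb, of complex III, stood at 1372 and 1434 CPM in WT and 646 and 606 CPM in null and mt-Nd4, of complex I, at 1117 and 1253 CPM in WT and 504 and 468 CPM in null; mt-Co1 fell less, by 0.44 ± 0.05. Proteasome genes split, 11 higher and 14 lower of 39, with none past 2-fold. Their share called was 64.1%, against 59.2% of all genes. Psma8, the testis core subunit, rose by 0.83 ± 0.07 and Psme1 fell by 0.59 ± 0.12. Translation factors had 22 of 51 lower and 12 higher, led by the elongation factor genes Eef1g and Eef1d at -1.27 ± 0.05 and -1.23 ± 0.05, with Eif4g2 at 0.61 ± 0.05.

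**Figure D4:**
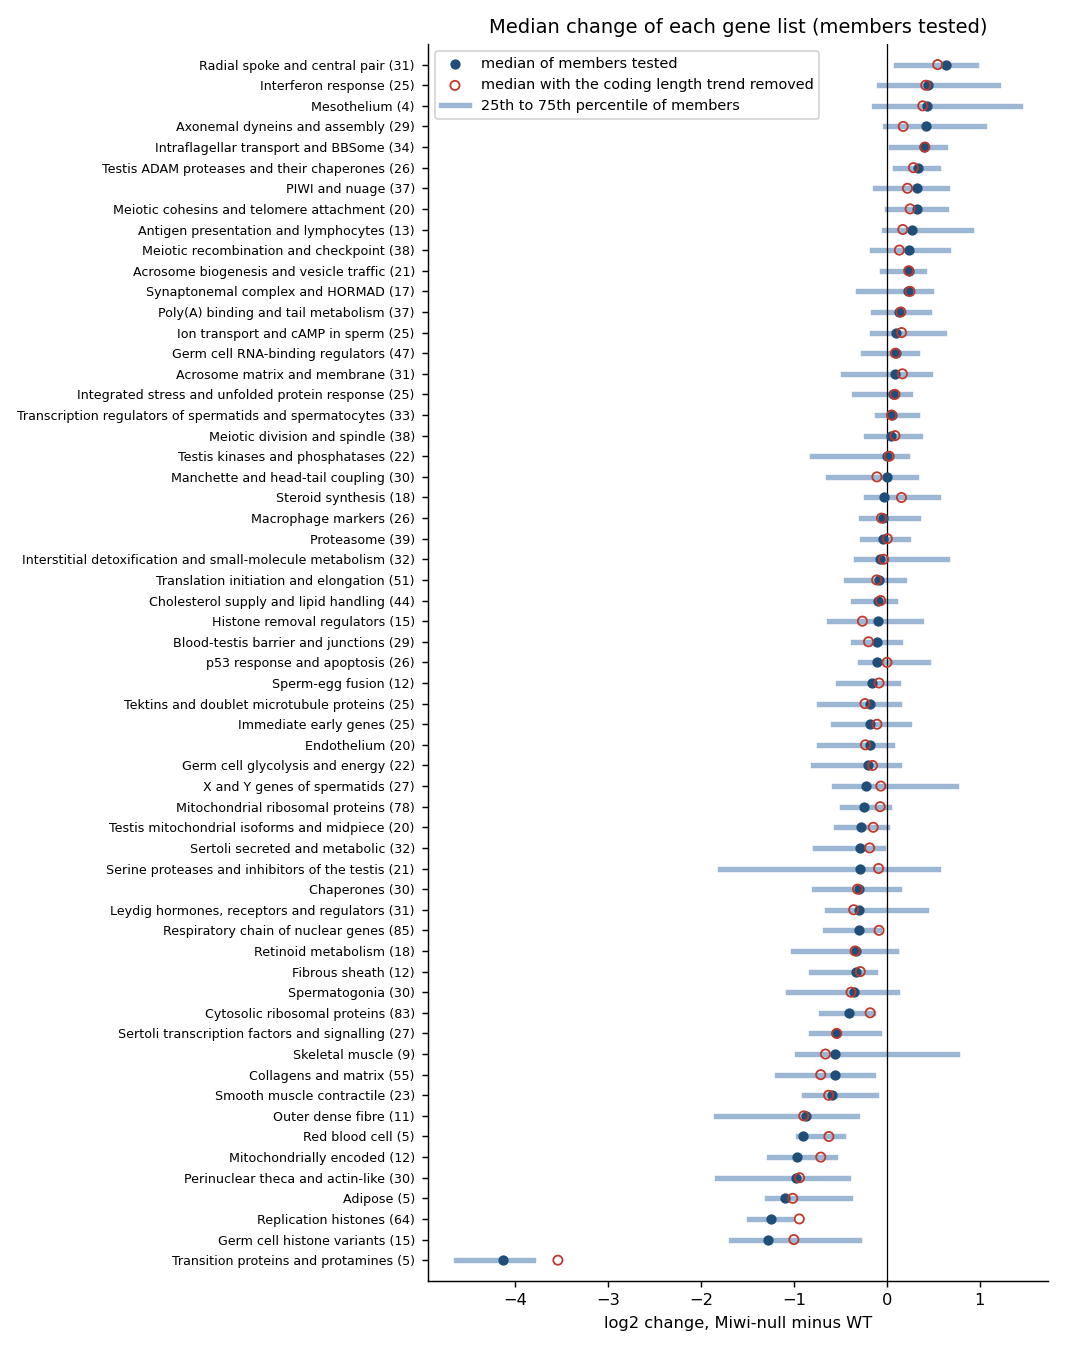
Median log2 change (Miwi-null minus WT) of the tested members of 59 gene lists, ordered by median, with the number tested in brackets; filled points are the main values, open circles those with the coding length trend removed, and bars span the 25th to 75th percentile of members. Replication histones and perinuclear theca genes stand at -0.94 or below either way, while ribosomal protein and respiratory chain genes move toward 0.

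Change and coding length went together across genes. Over 9599 genes with a mean of at least 10 CPM the log2 change correlated with log2 coding length at r = 0.285 (Spearman rho 0.28). Over all 15264 genes tested the correlation was weaker, r = 0.188 (rho 0.198). Genes are not independent, and the points share the 4 libraries. In the 10% of genes with the shortest coding sequences, 75 to 513 bases, 18.2% fell more than 2-fold and 4.64% rose, with a median of -0.31. In the 10% with the longest, 3549 bases or more, 4.72% fell and 11.3% rose, with a median of 0.19. The shortest 10% took 7.55% and 7.89% of the counts of the WT libraries and 4.92% and 4.96% of those of the null libraries, and the longest 19.1% and 18.8% against 24.2% and 24.2%. Insert size was also longer in both null libraries, as given above, so that the genotype and this property of the libraries cannot be told apart. After the trend was removed 8958 genes were called, 1146 of them higher and 1044 lower by more than 2-fold.

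**Figure D5:**
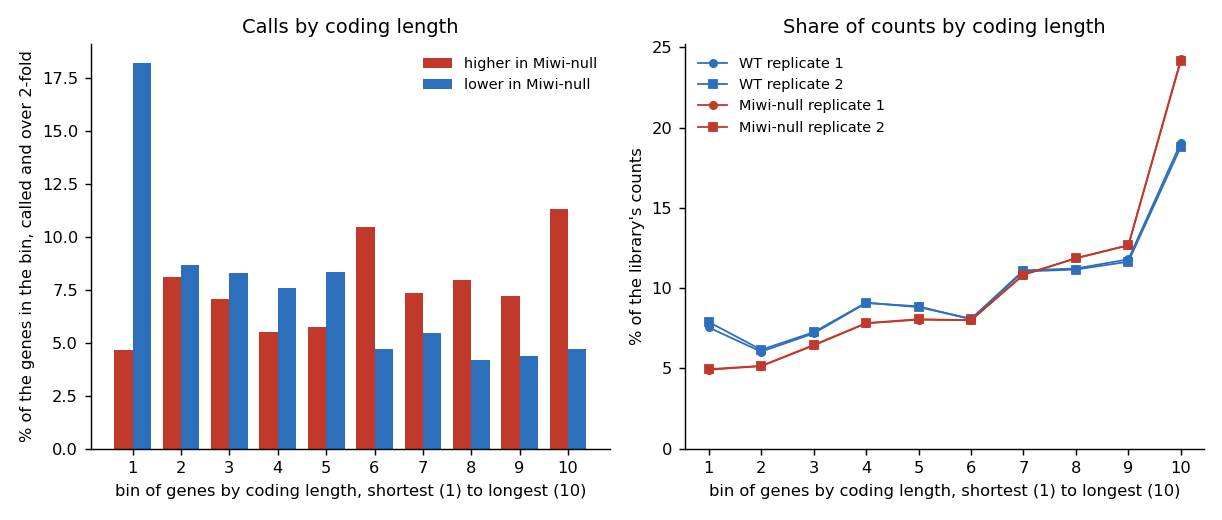
Left, the share of genes called with a change of more than 2-fold (% of genes, higher in red and lower in blue) in 10 bins of the genes tested by coding length; right, the share of each RNA library's counts (%) in the same bins. The shortest bin stands out on the left with 18.2% lower, and on the right the null libraries lie below the WT libraries in the short bins and above them in the longest.

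Of 311 genes named with a call, 276 kept it in every alternative fit, and 22 lost it only with all 8 libraries or DESeq2. These 22 included the Leydig genes Cyp17a1, Hsd3b1 and Lhcgr, with Gstm1, and the Sertoli genes Rhox5, Kitl and Cldn11. The others were Acrv1, Crem, Sycp3, Catsper1, Cnot7, Hist1h2ba, Hsp90aa1, Kdr, Lrat, Odf2l, Pfn4, Rpl10a, Rps27a, Ybx1 and Cyr61. The named genes were chosen largely for big called changes, so their calls were more likely to be kept. Among all list members and the largest changes, 371 calls were lost with all 8 libraries and 174 with DESeq2. The fits that omit 1 library have 1 residual degree of freedom, so their spread comes from a single pair: the null pair, with a median dispersion of 0.00054 or 0.000528, without a WT library, and the WT pair, with 0.00394 or 0.00398, without a null library, against 0.00237 with all 4. Calls without a WT library are therefore easier to reach. Left without a call when null RNA replicate 1 was omitted were Uba1y, Cdh5, Mael, Ldhc, H3f3a, Phf7, Flna and Spag5, with Zfp11 near Piwil1, and when null RNA replicate 2 was omitted Mael, Ldhc, H3f3a, Flna, H2afz and Kit. Omitting WT RNA replicate 1 took Sycp3 from 0.47 to 0.27, Pfn4 from 0.28 to 0.17, Ldhc from 0.15 to 0.09 and Mael from 0.14 to 0.06 on the log2 scale, and omitting WT RNA replicate 2 took Mael to 0.22 and Cxcl12 from 0.74 to 0.47, where Cxcl12 was no longer called (adjusted p = 0.0503 by edgeR's quasi-likelihood test). With the length trend removed Kit, Mylk, Spag5 and Flna lost their calls. The medians of the testis kinase, manchette, transcription regulator, meiotic division, proteasome, stress response, p53, steroid synthesis and macrophage lists lay close to 0 and changed sign in at least 1 alternative fit.

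Some list counts of 5 or more moved by over 1.5 times when 1 library was omitted. Without null RNA replicate 1 the genes lower were 9 in the proteasome list, 8 in meiotic division, 6 of the immediate early genes, 5 of the small-molecule enzymes, 3 of the p53 list, 3 of the red blood cell genes and 2 in acrosome formation. The genes higher were then 5 of the chaperones, 4 of the testis kinases, 4 of the energy genes and 3 of the smooth muscle genes. Without null RNA replicate 2 it was 9 lower in meiotic division, 3 in the dynein list and 3 in acrosome formation, with 4 energy genes, 5 chaperones, 5 mitochondrial ribosomal protein genes and 3 stress response genes higher. Without WT RNA replicate 1, 5 intraflagellar transport and 5 recombination genes were lower, and without WT RNA replicate 2, 14 respiratory chain and 5 secreted Sertoli genes were higher. DESeq2 called 22 mitochondrial ribosomal protein genes lower, 6 immediate early genes, 5 endothelial and 2 red blood cell genes, and 5 p53 genes higher.

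Fewer list members were called with all 8 libraries in the fit, as over all genes. Higher and lower genes were then 13 and 1 for intraflagellar transport, 2 and 11 for tektins, 6 and 2 for acrosome formation, 9 and 3 for ion transport, 3 and 9 for testis kinases, 2 and 9 for energy genes, 6 and 11 for the manchette and 4 and 10 for serine proteases. They were 7 and 7 for transcription regulators, 8 and 7 for meiotic division, 3 and 17 for translation factors, 1 and 33 for ribosomal proteins, 2 and 23 for mitochondrial ribosomal proteins, 1 and 35 for the respiratory chain, 5 and 8 for the proteasome, 3 and 15 for chaperones, 3 and 6 for the stress response and 3 and 5 for the p53 list, whose lean turned. Among lists of somatic cells they were 1 and 6 for immediate early genes, 7 and 12 for Leydig regulators, 5 and 13 for cholesterol and lipid genes, 0 and 13 for smooth muscle, 2 and 7 for barrier genes and 4 and 3 for macrophages.

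Removal of the length trend moved some other named values by over 1.5 times with the call kept. The value became 0.61 for Vps13b, 0.50 for Brwd1, 0.60 for Pfn4, 1.17 for Cxcl12, -0.24 for Cldn11, -0.21 for Gtsf1l, -0.42 for Hist2h2aa2, -0.37 for Syce2 and -0.84 for Rps29. With the longest transcript Syce2 was at -0.30.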

How the data were processed

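Testis RNA libraries of 2 WT and 2 Miwi-null samples were analysed; the footprint libraries entered 1 alternative fit only. The authors deposited counts and FPKM per transcript. Tools in the submitters' processing notes are STAR 2.5.0a, Bowtie 1.2.2 and cutadapt 2.5, with build GRCm38; the counting program and strand setting were not given in the sources used here. FPKM, as the authors deposited them, served for ranks alone. Counts were tested with edgeR 4.0.16 in R 4.3.3 (TMM, filterByExpr with a minimum count of 10 and total of 15, robust quasi-likelihood test, 2 residual degrees of freedom), with Benjamini-Hochberg adjustment over 15264 genes, a threshold of 0.05 and a further rule of more than 2-fold. CPM values are TMM-scaled. The length trend was a lowess curve (span 0.3) of change on log coding length.

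In simulated counts, 96% of 50 genes changed 1.5-fold and 100% of 50 changed 2-fold were recovered, and 11 unchanged genes of 15264 simulated were called. The counts were drawn with dispersions taken from the main fit, with a lower limit, and few genes were changed, all above a set level. High recovery was thus built in, and it does not bear on genes at low levels or on spread between animals. No block was used, because the labels do not tie same-numbered libraries to the same animal. Deviations of same-numbered libraries from their group means correlated at r = 0.0070 over 9599 genes. The null pair differed little beyond counting noise, so this value cannot show whether the numbers pair the libraries.

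Lists and members were chosen with earlier results of these data known. The genes named are Piwil1, those among the 30 largest called changes in each direction without overlap and at 5 CPM or more, the largest called members of each list (up to 6 a direction), and members that define a list or go against it. Genes named by chromosome, family or neighbourhood were chosen after their values were seen. Promoters are from RefSeq (GRCm38.p6). Alternatives were DESeq2 1.42.0, other scaling, filter and transcript choices, a replicate block, all 8 libraries, and each library left out. Dispersions under 0.00011 were raised to that value, a step added after the results were seen: in Ldhc without WT replicate 1, edgeR's likelihood ratio was 596 against an exact 23.5 at a dispersion of 9e-05, and both were 20.2 at 0.00011. This touched 2201 and 2218 genes in the fits without WT replicates 1 and 2, and none in any other edgeR fit of the real counts.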

Additional observations from a re-analysis of the deposited data

How the results depend on the processing

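The 9035 genes called became 6761 with DESeq2, 9028 with RLE factors, 8979 without TMM, 9275 without the low-count filter, 9000 with the longest transcript and 8958 with the length trend removed. Fitting all 8 libraries together gave 5987, of them 2641 higher and 3346 lower. Leaving out each library in turn gave 7148 to 9545, with 1 residual degree of freedom and the spread of a single pair. With the replicate number as a block 9228 genes were called, 4623 higher and 4605 lower. The labels do not say whether the numbers pair the libraries. Of the lists, 38 had a median below 0, and 36 to 42 did in the alternatives.

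List medians close to 0 changed sign. With all 8 libraries the median was -0.0611 for testis kinases, -0.0633 for the manchette, -0.0089 for transcription regulators and -0.0139 for meiotic division. With the length trend removed it was -0.1058 for the manchette, 0.0068 for the proteasome, 0.0028 for p53 and 0.1587 for steroid synthesis. Steroid synthesis was at 0.0073 without TMM and 0.0961 with the longest transcript, and the manchette at -0.0016 without the low-count filter. With 1 library left out the medians ran from -0.027 to 0.0564 for testis kinases, -0.0697 to 0.0068 for the manchette, -0.0095 to 0.0837 for meiotic division, -0.0021 to 0.082 for stress response, -0.1221 to 0.0399 for p53, -0.1204 to 0.1367 for steroid synthesis and -0.0465 to 0.0125 for macrophages. The causes were not tested. With 2 libraries a group, genes of few counts carry wide errors.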

Other observations

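Several gene families outside the lists moved together; they were picked after their values were seen and are given as values. All 29 tested Btbd35f genes, a multicopy family on chromosome X, were called more than 2-fold higher, with a median of 3.15 and a summed level of 17.1 and 20.1 CPM in WT and 154 and 160.4 CPM in null. Their sequences are near-identical, so reads may be split among copies and the genes are not separate observations. The 9 Ugt1a genes share exons and rose alike, by 1.36 to 1.44. Of 346 tested Zfp genes, which mostly encode zinc finger proteins, 161 rose and 50 fell, 64 and 5 by more than 2-fold (18.5% and 1.45%, against 7.54% and 7.44% of all genes), with a median of 0.37. All 14 tested Pcdha genes, protocadherins that share exons, fell, with a median of -0.72. Of 29 Spata genes 19 fell and 7 rose, with a median of -0.57.

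Genes within 1 Mb of Piwil1 on chromosome 5 did not move as a block. Rimbp2 stood at 2.74 and 2.76 CPM in WT and 13.8 and 13.7 CPM in null (2.32 ± 0.18) and Stx2, a syntaxin gene, at 24.4 and 27.2 CPM in WT and 53.1 and 51.4 CPM in null (1.02 ± 0.09). Adgrd1 stood at 5.68 and 4.14 CPM in WT and 0.778 and 1.51 CPM in null (-2.13 ± 0.34), and Zfp11 rose by 0.72 ± 0.21. Ran (-0.03 ± 0.06), Sfswap (-0.18 ± 0.08), Mmp17 (-0.09 ± 0.31), Sept14 (-0.10 ± 0.10) and Mrps17 (0.08 ± 0.12) were not called. The part of the null allele's flanking DNA in these changes was not tested.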
